A study of Drosophila melanogaster with 6 samples.

Results

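The antimicrobial peptide genes of Drosophila melanogaster are described here by their RNA levels in whole wandering larvae. The members were chosen by name, as the rows of the deposited table whose symbol is Drs, Mtk, Def, Dpt, DptB, AttA, AttB, AttC, AttD or CecA1. Of these 10 names, 9 were found among the 15741 entries of the table, and CecA1 was not analysed here. All 9 passed the filter on low values used for testing, a mean of at least 1 RPKM (reads per kilobase of gene, scaled to the library's total reads) over the libraries. AttA passed it through the depletion libraries, since its wild-type values lie below that level, and the wild-type values of Def lie on either side of it. The filter thus favoured higher values of AttA, and in part of Def, in the depletion libraries than in wild type, and counts and medians against wild type that hold them are descriptions only.

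The study asked how the larval transcriptome depends on Cmi and Trr, subunits of an enhancer-bound histone methyltransferase complex of the COMPASS family. Each of the 6 groups is 1 library of pooled last-instar larvae grown at 25 °C, with more than 20 animals per genotype. Wild type larvae, larvae with Cmi RNAi depletion and larvae labelled as Trr RNAi depletion were each taken at the blue gut stage, early in wandering, and at the clear gut stage, shortly before the puparium forms. Both depletions used a short hairpin RNA under the GawB69B Gal4 driver. GawB69B is an enhancer-trap line used mainly for its activity in embryonic and larval ectoderm. Which stock served as wild type, and with or without the driver, is not given in the labels.

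Antimicrobial peptides are short secreted proteins that kill bacteria and fungi. After a systemic infection they are made mainly by the fat body and released into the haemolymph, and barrier epithelia such as gut and trachea also make some of them. Their genes are switched on by NF-kappaB factors through the Toll pathway, which acts through Dif and Dorsal and is best known for Drosomycin (Drs), and the Imd pathway, which acts through Relish and is best known for the diptericins and attacins. Metchnikowin (Mtk) and Defensin (Def) respond to both.

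The values correspond to 23086780 to 25011640 reads on genes per library, and the members took 0.0323% to 0.107% of them. The hairpins' targets were only slightly lower or not lower. Lpt, the gene of Cmi, measured 5.57 RPKM in wild type and 4.44 under Cmi depletion at blue gut, then 6.66 and 5.11 at clear gut. At blue gut trr stood at 2.92 RPKM for wild type and 3.60 for the pool labelled as Trr depletion. This goes against that label when set beside wild type alone. At clear gut trr stood at 6.19 and 4.76. Under Cmi depletion trr stood at 4.49 at blue gut and 5.92 at clear gut, above the pools labelled as Trr depletion. These values do not settle the depletion, so the 2 libraries are called Trr-labelled throughout. Markers of fat body (10 genes), blood cells (15), midgut (19), trachea and epidermis (8), salivary gland (9) and muscle (10) were present in every library, with at most 1 gene of a list at 0. With a single pool behind each group, how far like pools vary is unknown, and in bulk RNA fewer cells of a type and less RNA per cell cannot be told apart.

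Most members lie on the right arm of chromosome 2, some of them side by side. In the RefSeq annotation of Release 6 of the genome (dm6), Dpt (gene 37183, listed there as DptA, chromosome 2R, 18865765 to 18866260) and DptB (gene 37184, 18867391 to 18867895) are 1130 bases apart. AttA (gene 36636, 14747362 to 14748215) and AttB (gene 36637, 14749223 to 14750165) are 1007 bases apart, and Dro, which encodes Drosocin, ends 647 bases before AttA. AttC (gene 36484, 13393705 to 13394667), Mtk (gene 36708, 15408846 to 15409113) and Def (gene 36047, 10054178 to 10054576) stand alone on 2R. Drs (gene 38419, 3369556 to 3369942) is on 3L, 33137 bases beyond Drsl6, the nearest of 6 Drosomycin-like genes, and AttD (gene 42122, 17625268 to 17626086) is on 3R. Drs, Mtk, Def and Dpt are annotated with a single exon, and DptB and the 4 attacins with 2.

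Reads of AttA and AttB are uncertain because the genes are near-identical copies. AttB had a value that ends in 0.5 of a read in 2 libraries and Def in 3, the other members in none. For Mtk the table gives a length of 548 bases and the annotation 268, so its RPKM depends on which is right more than that of Drs (456 and 387 bases) does. This does not touch ratios between libraries.

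Drs and Mtk made up most of the summed level of the 9 genes in every library. The summed level of the 9 genes was 622 RPKM in wild type, 617 under Cmi depletion and 947 in the Trr-labelled library at blue gut. At clear gut the sums were 1484, 1998 and 2115 RPKM. Drs and Mtk together gave 90.3%, 59.0% and 90.9% of the sum at blue gut, then 96.9%, 95.3% and 85.2% at clear gut, in the same order of genotypes. Their share was lowest under Cmi depletion at blue gut, where diptericins and attacins gave 40.6% (250 RPKM), against 9.48% (59.0 RPKM) in wild type.

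**Figure D1:**
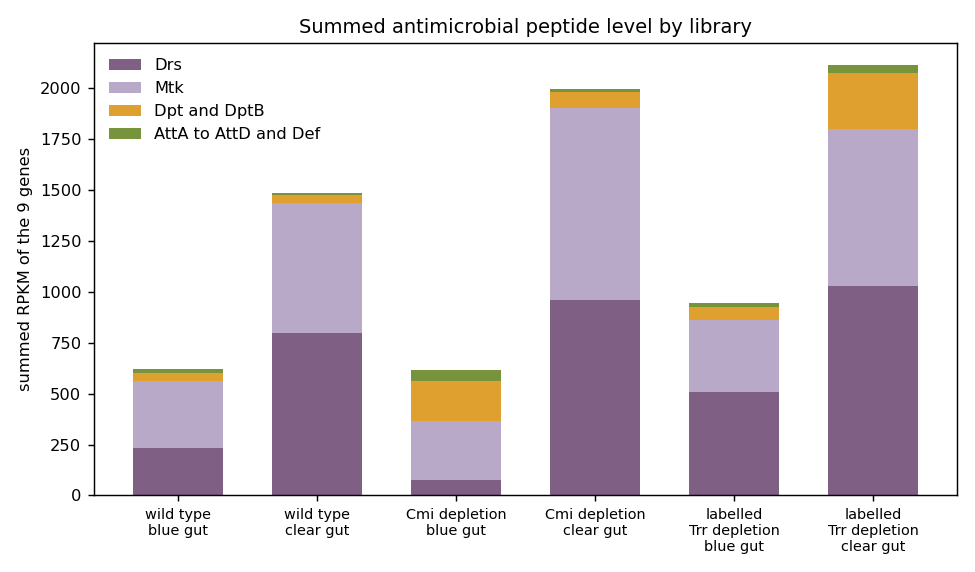
Summed RPKM of the 9 antimicrobial peptide genes in each of the 6 libraries, stacked by gene group, with 1 library per bar and no error. The clear gut bars (1484, 1998 and 2115 RPKM) stand above the blue gut bars (622, 617 and 947 RPKM), and diptericins and attacins together give 40.6% of the bar under Cmi depletion at blue gut and 14.8% in the clear gut Trr-labelled library.

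By level per length, Drs and Mtk ranked between place 80 and place 977 of the 15741 entries. Dpt ranked between 349 and 2556, and Def and AttA were the lowest members, at or below 3.71 RPKM in every library. A count of 3 reads, taken as the floor, equals 0.128 to 0.309 RPKM for AttB and Def, and the value of AttA in wild type at blue gut rests on just 3 reads.

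Clear gut was compared with blue gut to follow the peptide genes through wandering. Drs and Mtk rose, with higher values at clear gut in 3 of 3 genotypes, while no other member passed the test. AttD, DptB and AttC had lower values at clear gut in wild type and Cmi depletion, and not in the Trr-labelled libraries. There DptB and AttC were higher at clear gut, and AttD did not differ beyond counting error. Of all 11467 genes tested, limma called 24.2% higher and 11.1% lower, so 2 of 9 members higher and 0 lower is close to the background of this comparison. With median-ratio scaling the genes called changed from 2777 higher and 1275 lower to 1334 higher and 1456 lower.

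Mtk encodes a proline-rich peptide active against fungi and Gram-positive bacteria. It measured 330, 287 and 353 RPKM at blue gut in wild type, Cmi depletion and the Trr-labelled library, and 639, 944 and 774 RPKM at clear gut. The 3 clear gut values all lay above the 3 blue gut values. Its log2 change was 1.26 (SE 0.18, adjusted p = 0.0104, limma, adjusted over all genes by Benjamini-Hochberg), in the same direction in 3 of 3 genotypes. A genotype left with 1 library adds nothing to the stage estimate, so that leaving out either wild-type library gives the value of the depletions alone, 1.42 with adjusted p = 0.0616 or 0.0672.

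Drs encodes Drosomycin, an antifungal peptide and the classic target of Toll. It measured 233, 76.7 and 508 RPKM at blue gut in the same order, and 798, 959 and 1027 RPKM at clear gut. The clear gut values lay close together and above the blue gut values, which spread widely. Its log2 change was 2.14 (SE 0.54, adjusted p = 0.0427, limma), again in 3 of 3 genotypes. Within a genotype, clear gut stood at 3.43 times blue gut in wild type (exact 95% counting interval 3.28 to 3.59), 12.5 times under Cmi depletion (11.6 to 13.4) and 2.02 times in the Trr-labelled libraries (1.96 to 2.09). The call ends with median-ratio scaling (log2 1.91, adjusted p = 0.0598) and without either wild-type library (2.32, adjusted p = 0.17). These counting intervals, here and below, cover only the error of counting reads.

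**Figure D2:**
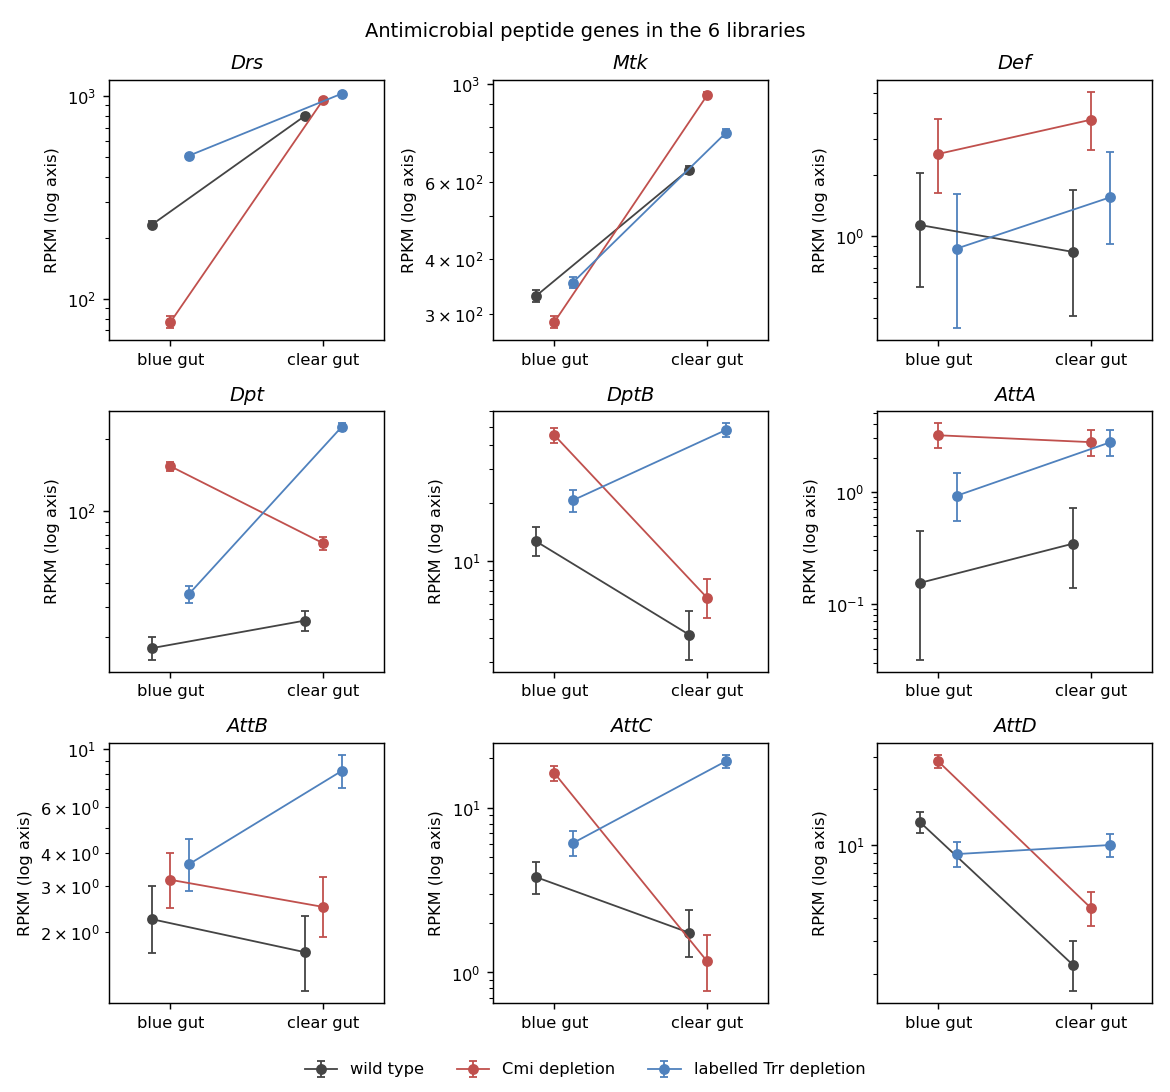
RPKM of each of the 9 genes (log axis, scaled per panel) at blue gut and clear gut in wild type (grey), Cmi depletion (red) and the Trr-labelled libraries (blue). Points are single libraries, bars are exact 95% counting intervals, and lines join the libraries of a genotype. Drs and Mtk go up in all 3 genotypes, while the red and blue lines of Dpt, DptB, AttC and AttD cross.

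The attacin AttD, which unlike the other attacins lacks a signal peptide, gave the lowest clear gut values against blue gut in wild type. It measured 13.3 RPKM at blue gut and 2.24 at clear gut in wild type, 28.3 and 4.53 under Cmi depletion, and 8.91 and 9.97 in the Trr-labelled libraries. Clear gut thus stood at 0.169 times blue gut in wild type (0.118 to 0.235) and 0.160 times under Cmi depletion (0.126 to 0.201), and at 1.12 times in the Trr-labelled libraries (0.901 to 1.39). The log2 change over the genotypes was -1.47 (SE 0.56, adjusted p = 0.116, limma). In wild type and Cmi depletion alone it was -2.27, with adjusted p = 0.00474, 0.00509 or 0.00476 as 1, the other or both Trr-labelled libraries were left out. These are 1 estimate, which leaves out the genotype in which clear gut was not lower, and leaving out both was chosen after seeing the data.

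DptB and AttC had a stage pattern much like each other. DptB, a diptericin, a glycine-rich peptide against Gram-negative bacteria, measured 12.7 and 4.16 RPKM in wild type, 45.2 and 6.44 under Cmi depletion, and 20.7 and 47.9 in the Trr-labelled libraries, at blue gut and clear gut. AttC, a secreted attacin, measured 3.79 and 1.75, 16.2 and 1.17, and 6.09 and 19.1 RPKM in that order. Both were lower at clear gut in wild type and Cmi depletion and higher in the Trr-labelled libraries.

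Clear gut stood at 0.328 times blue gut in wild type for DptB (0.231 to 0.458) and at 0.460 times for AttC (0.306 to 0.682). Under Cmi depletion the ratios were 0.143 (0.111 to 0.182) and 0.0719 (0.0467 to 0.106). In the Trr-labelled libraries they were 2.32 (1.98 to 2.71) and 3.14 (2.57 to 3.85). Over the genotypes limma called neither, with log2 changes of -0.96 (SE 0.77, adjusted p = 0.409) and -0.76 (SE 0.89, adjusted p = 0.577). In wild type and Cmi depletion alone the change of DptB was -2.02 over the same leave-outs, which drop the genotype in which DptB went the other way.

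Dpt, the other diptericin and the classic readout of Imd, measured 26.9 RPKM at blue gut and 35.0 at clear gut in wild type, 154 and 73.5 under Cmi depletion, and 45.0 and 224 in the Trr-labelled libraries. It was thus higher at clear gut in wild type and in the Trr-labelled libraries, and lower under Cmi depletion. Its ratio of clear gut to blue gut was 1.30 (1.12 to 1.51), 0.477 (0.440 to 0.516) and 4.99 (4.54 to 5.48) in that order. Over the genotypes its log2 change was 0.53 (SE 0.67, adjusted p = 0.605, limma).

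AttA, AttB and Def were low. AttA, a secreted attacin, measured 0.154 and 0.344 RPKM in wild type, 3.17 and 2.75 under Cmi depletion, and 0.918 and 2.73 in the Trr-labelled libraries. AttB, its neighbour, measured 2.24 and 1.68, 3.17 and 2.49, and 3.62 and 8.22 RPKM. Def, an insect defensin against Gram-positive bacteria, measured 1.13 and 0.838, 2.52 and 3.71, and 0.870 and 1.55 RPKM. For AttA and AttB clear gut stood above blue gut beyond counting error in the Trr-labelled libraries only, at 2.98 times (1.72 to 5.39) and 2.27 times (1.73 to 2.99), and a stage difference of Def was not detectable at this depth in any genotype. Limma called none of the 3, at adjusted p = 0.356, 0.751 and 0.451.

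**Figure D3:**
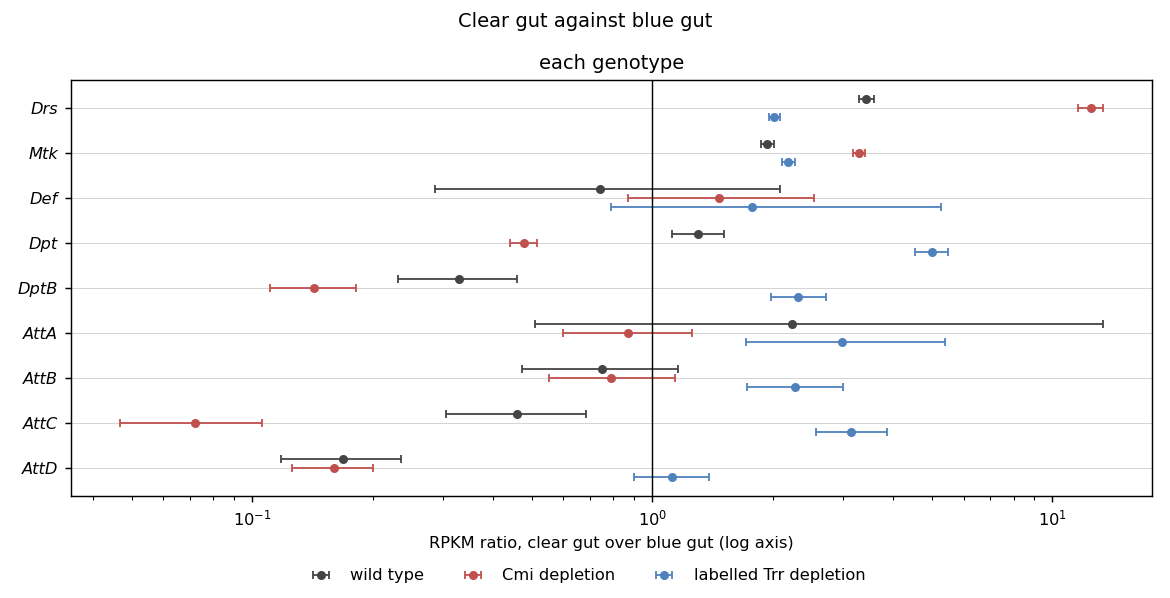
Ratio of RPKM at clear gut to RPKM at blue gut (log axis) for each gene in wild type (grey), Cmi depletion (red) and the Trr-labelled libraries (blue). Points are ratios of 2 libraries, bars are exact 95% counting intervals, and the vertical line marks 1. Drs lies at 3.43, 12.5 and 2.02, while AttC lies at 0.460, 0.0719 and 3.14.

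A 2-fold difference gave other counts in each genotype. In wild type 2 of 9 members were at least 2-fold higher (Drs and AttA, the latter on 7 and 3 reads) where 19.0% of all genes tested were, and 3 were at least 2-fold lower (DptB, AttC and AttD) where 11.6% were. Under Cmi depletion 2 were higher (Drs and Mtk, background 11.7%) and 4 lower (Dpt, DptB, AttC and AttD, background 11.5%). In the Trr-labelled libraries 7 were higher (all but Def and AttD, background 9.71%) and 0 lower (background 7.96%). Whether the genotypes differ in this was not tested, for want of replicates.

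The Cmi depletion libraries were set against wild type to see which peptide genes depend on Cmi. At blue gut the diptericins and the attacins other than AttB were at least 2-fold higher under Cmi depletion, led by Dpt among the abundant genes, while Drs was at a lower level than in wild type. At clear gut Dpt, AttA, AttD and Def were still at least 2-fold above wild type, and Drs and Mtk were slightly above it. With median-ratio scaling Dpt (1.81 times) and AttD (1.74 times) were below 2-fold there, and Drs was nearly level with wild type (1.04 times). Limma called 0 of the 9 members over both stages. An unadjusted p below 0.05 was found for 2 of them, AttA and Def, and for 6.81% of all genes. Nothing is read from this count, because the filter favoured AttA and in part Def. Over all genes limma called 0.0872% higher and 0.0174% lower, so that a call was rare for any gene.

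For Dpt, Cmi depletion stood at 5.74 times wild type at blue gut (5.09 to 6.49) and 2.10 times at clear gut (1.87 to 2.36). Its mean log2 difference of 1.76 (SE 0.82, adjusted p = 0.672, limma) was in the same direction at 2 of 2 stages. DptB stood at 3.56 times wild type (2.95 to 4.32) and 1.55 times (1.07 to 2.27). AttD stood at 2.13 times (1.82 to 2.50) and 2.02 times (1.39 to 3). For these 3 genes the Cmi value was above wild type at both stages, with a smaller ratio at clear gut for Dpt and DptB. The intervals of the 2 AttD ratios overlap widely.

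AttC differed from them at clear gut. It stood at 4.28 times wild type at blue gut (3.35 to 5.52) and 0.668 times at clear gut, where the interval holds 1 (0.394 to 1.12). AttA stood at 20.6 times wild type at blue gut, against only 3 reads in wild type (6.72 to 102), and at 8 times at clear gut (3.65 to 20.8). Its mean log2 difference was 1.67 (SE 0.31), given without a test because AttA passed the filter through the depletion libraries. For AttB, its near copy, the ratios were 1.41 (0.957 to 2.06) and 1.49 (0.981 to 2.32), neither beyond counting error. How reads were shared between the pair is not given in the sources used here.

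Def stood at 2.23 times wild type at blue gut (1.06 to 5.01) and 4.43 times at clear gut (1.99 to 9.82), on 9 to 39 reads per library. Its mean log2 difference was 1.04 (SE 0.24, adjusted p = 0.423, limma). Drs went the other way at blue gut, at 0.330 times wild type (0.305 to 0.357), and stood at 1.20 times at clear gut (1.17 to 1.24). Mtk stood at 0.872 times (0.834 to 0.912) and 1.48 times (1.44 to 1.52). As deposited, Drs and Mtk were thus below wild type at blue gut and above it at clear gut. With median-ratio scaling the clear gut ratio was 1.04 for Drs, nearly level with wild type, and 1.27 for Mtk.

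**Figure D4:**
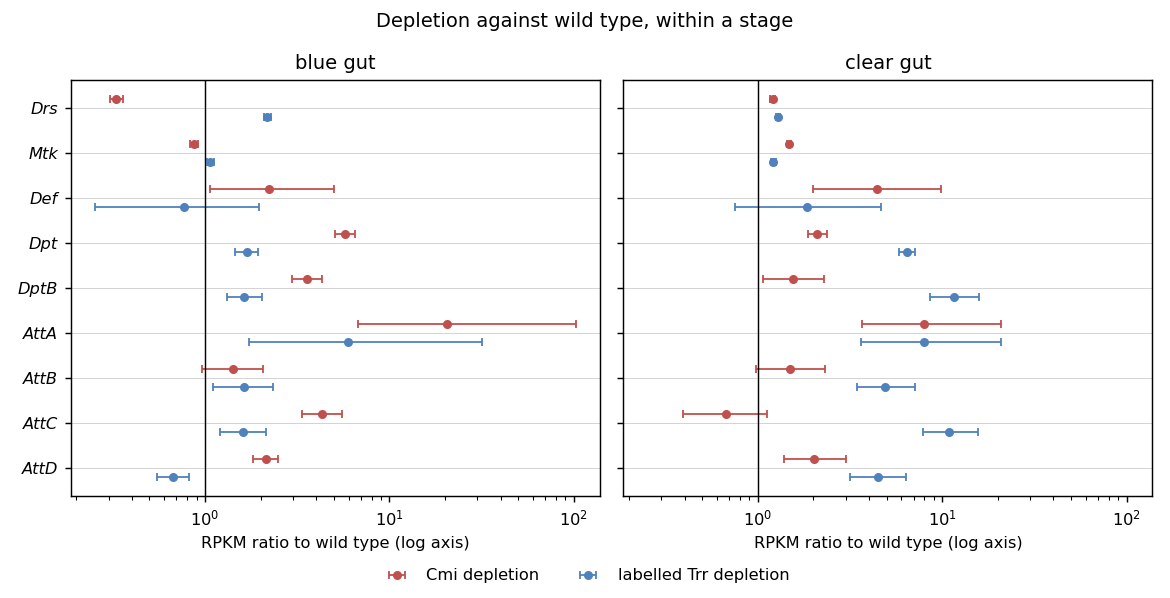
Ratio of RPKM to wild type at the same stage (log axis) for Cmi depletion (red) and the Trr-labelled libraries (blue), at blue gut (left) and clear gut (right). Points are ratios of 2 libraries with exact 95% counting intervals, and the vertical line marks 1. Dpt lies at 5.74 and 1.68 at blue gut and at 2.10 and 6.41 at clear gut, so the larger ratio changes from red to blue.

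By the 2-fold count, 6 of 9 members were higher under Cmi depletion at blue gut (Def, Dpt, DptB, AttA, AttC and AttD) where 4.37% of all genes tested were, and 1 was lower (Drs, background 3.25%). At clear gut 4 were higher (background 3.89%) and 0 lower (background 6.53%). The 4 were Def, Dpt, AttA and AttD, and all of them were also higher at blue gut. Over all genes 0.890% were 2-fold higher at both stages and 1.71% lower. With median-ratio scaling Dpt (1.81) and AttD (1.74) were below 2-fold at clear gut. Def and AttA stayed above it, and the filter favoured AttA and in part Def. The median log2 difference of the 9 members in the additive fit was 0.90, beside 0.13 for all genes tested. As it holds AttA and Def, it is a description only.

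The Trr-labelled libraries were compared with the same wild-type libraries, so the 2 comparisons share their controls. At clear gut the diptericins and attacins were far above wild type in the Trr-labelled library. At blue gut most of them were less than 2-fold above it. Limma called 0 of 9 members over both stages. An unadjusted p below 0.05 was found for 2 of them, AttA and AttB, and for 6.88% of all genes. Nothing is read from the p of AttA, because the filter favoured that gene. Over all genes limma called 0.0523% higher and 0.00% lower.

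DptB stood at 11.5 times wild type at clear gut (8.57 to 15.8) and 1.63 times at blue gut (1.32 to 2.03). Its mean log2 difference was 1.96 (SE 0.94, adjusted p = 0.633, limma). AttC stood at 10.9 times at clear gut (7.88 to 15.6) and 1.61 times at blue gut (1.21 to 2.14). Dpt stood at 6.41 times (5.79 to 7.12) and 1.68 times (1.46 to 1.93). These 3 genes were above wild type at both stages, by more at clear gut.

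AttB followed the same order, with 4.90 times wild type at clear gut (3.44 to 7.14) and 1.62 times at blue gut (1.11 to 2.33), and a mean log2 difference of 1.15 (SE 0.37, adjusted p = 0.633, limma). AttA stood at 7.94 times (3.61 to 20.7) and, against 3 reads, at 5.96 times (1.74 to 31.6). AttD stood at 4.46 times at clear gut (3.17 to 6.39) but at 0.671 times at blue gut (0.546 to 0.823). Drs was 2.18 times wild type at blue gut (2.08 to 2.29) and 1.29 times at clear gut (1.25 to 1.32). Mtk stood at 1.07 times at blue gut (1.03 to 1.12), which turns to 0.946 with median-ratio scaling, and 1.21 times at clear gut (1.18 to 1.25). For Def no difference from wild type was detectable with these few reads at either stage, at 0.767 times (0.252 to 1.97) and 1.84 times (0.748 to 4.62).

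Of the 9 members, 2 were at least 2-fold higher at blue gut (Drs and AttA, background 3.61%) and 0 lower (background 3.02%). At clear gut 6 were higher (Dpt, DptB and the 4 attacins, background 4.90%) and 0 lower (background 2.02%). AttA was 2-fold higher at both stages, where 1.06% of all genes were, from which nothing is read because the filter favoured it. The median log2 difference of the 9 members was 1.10, which is the value of AttA itself, beside 0.15 for all genes tested. Like the count at clear gut it holds AttA, so both are descriptions only.

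Set against each other, the 2 depletions differed in opposite directions at the 2 stages for 4 members. At blue gut the Trr-labelled library stood at 0.292 times Cmi depletion for Dpt (0.265 to 0.322), 0.458 for DptB (0.390 to 0.536), 0.375 for AttC (0.305 to 0.460) and 0.315 for AttD (0.262 to 0.377). At clear gut the same ratios were 3.05 (2.83 to 3.29), 7.44 (5.85 to 9.57), 16.4 (11.1 to 25.1) and 2.20 (1.70 to 2.87). Drs stood at 6.62 times Cmi depletion at blue gut (6.15 to 7.13) and at 1.07 times at clear gut (1.04 to 1.10). Its log2 difference was 1.4 (SE 0.66, adjusted p = 0.988, limma), and 0.29 to 2.52 leaving out 1 library. The largest value came without the Cmi depletion library of clear gut, which drops the stage at which Drs was nearly level. Def was lower than under Cmi depletion at both stages, at 0.345 (0.126 to 0.742) and 0.416 (0.224 to 0.787).

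At blue gut 6 of 9 members were at least 2-fold lower than under Cmi depletion where 2.25% of all genes were, and 1 (Drs) was higher where 2.34% were. At clear gut 5 were higher (Dpt, DptB, AttB, AttC and AttD, background 8.03%) and 1 (Def) lower (background 1.93%). Def was also the member that was 2-fold lower at both stages (background 0.279%). Over both stages limma called 0 members and 0.00% of all genes, and 1 member (Def, log2 -0.90, SE 0.24, adjusted p = 0.951) had an unadjusted p below 0.05, as did 4.29% of all genes.

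Likeness of 2 profiles was measured as the root mean square difference of their mean-centred log2(RPKM + 1) values over the 6 libraries, where 0 means the same profile. Among the members DptB and AttC were closest (0.28), although they lie far apart on 2R, followed by AttA with Def (0.47) and with Dpt (0.53). This scale understates changes of low genes such as AttA and Def. Their ratios of Cmi depletion to wild type at blue gut were 20.6 and 2.23, the former against 3 reads in wild type. The neighbours Dpt and DptB differed by 0.84 and the neighbours AttA and AttB by 0.64. Drs was closest to Mtk (0.83) and farthest from AttD (2.23).

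Among 11458 genes that are no members, the closest to Dpt was Dro (0.21), itself an antimicrobial peptide gene. The closest to AttC after CG42825 (0.40) was lectin-37Da (0.42), which was also the second closest to Dpt (0.64). For DptB the closest were CG43348 (0.33) and CG16775 (0.47), and for AttD the heat shock gene Hsp70Bc (0.25) and the cuticle gene Cpr47Eb (0.29). Mtk had very close genes in Oat (0.08), an ornithine aminotransferase, and CG3011 (0.11). For Drs the nearest were CG14567 (0.50) and CG42460 (0.60). For AttB the closest were CG12896 (0.19) and the peroxiredoxin Prx2540-1 (0.25), for Def CG6654 (0.21) and CG5278 (0.23), and for AttA the receptor gene Ir76a (0.24) and an entry without a gene symbol (0.30). Likeness over 6 libraries is given as a description, and for low genes such as AttA and Def the scale understates differences.

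Other antimicrobial peptide genes also differed among themselves. Among 12 such genes found, 6 were tested. At clear gut limma called 3 of them higher and 0 lower, where 24.2% and 11.1% of all genes were called. The 3 were Drsl5, Drsl2 and CecA2. Drsl5, a Drosomycin-like gene, measured 118, 29.2 and 8.73 RPKM at blue gut and 3042, 2868 and 1251 RPKM at clear gut in wild type, Cmi depletion and the Trr-labelled libraries. It rose by 6.09 on the log2 scale (SE 0.50, adjusted p = 0.00446, limma). At clear gut its level was above that of Drs in all 3 genotypes. Drsl2 measured 0.137, 2.62 and 1.91 RPKM at blue gut, then 70.1, 130 and 12.2 at clear gut (log2 4.44, SE 0.79, adjusted p = 0.0197, limma). The cecropin gene CecA2, whose sequence is close to that of CecA1 so that its reads are uncertain, went from 1.38, 1.90 and 2.83 to 8.72, 38.3 and 8.47 RPKM (log2 2.36, SE 0.51, adjusted p = 0.0285, limma).

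The 6 libraries had the same order for Dro as for Dpt, with 0.894 and 1.66 RPKM in wild type, 9.80 and 2.84 under Cmi depletion, and 2.83 and 14.5 in the Trr-labelled libraries at blue gut and clear gut. It stood at 11.0 times wild type under Cmi depletion at blue gut (6.56 to 19.6) and at 8.78 times in the Trr-labelled library at clear gut (6.04 to 13.2). The cecropin gene CecC did not follow it under Cmi depletion, where it stood at 0.259 times wild type at blue gut (0.180 to 0.365). CecC measured 14.2 and 1.45 RPKM in wild type, 3.67 and 1.15 under Cmi depletion, and 10.6 and 9.74 in the Trr-labelled libraries. Listericin measured 61.6 and 34.6, 50.9 and 16.8, and 56.7 and 49.4 RPKM. Limma called 0 of the 6 in either depletion. At an unadjusted p below 0.05 were 0 under Cmi depletion (6.81% of all genes) and 1 in the Trr-labelled libraries (6.88%). The largest log2 differences under Cmi depletion were those of Dro (1.52), Drsl2 (1.27) and CecA2 (1.15), and in the Trr-labelled libraries those of Drsl5 (-2.44), Dro (1.78) and CecC (0.87). Between the depletions they were CecC (1.82), Drsl2 (-1.81) and Drsl5 (-1.41). There 0 were called and 1 had an unadjusted p below 0.05, as did 4.29% of all genes.

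**Figure D5:**
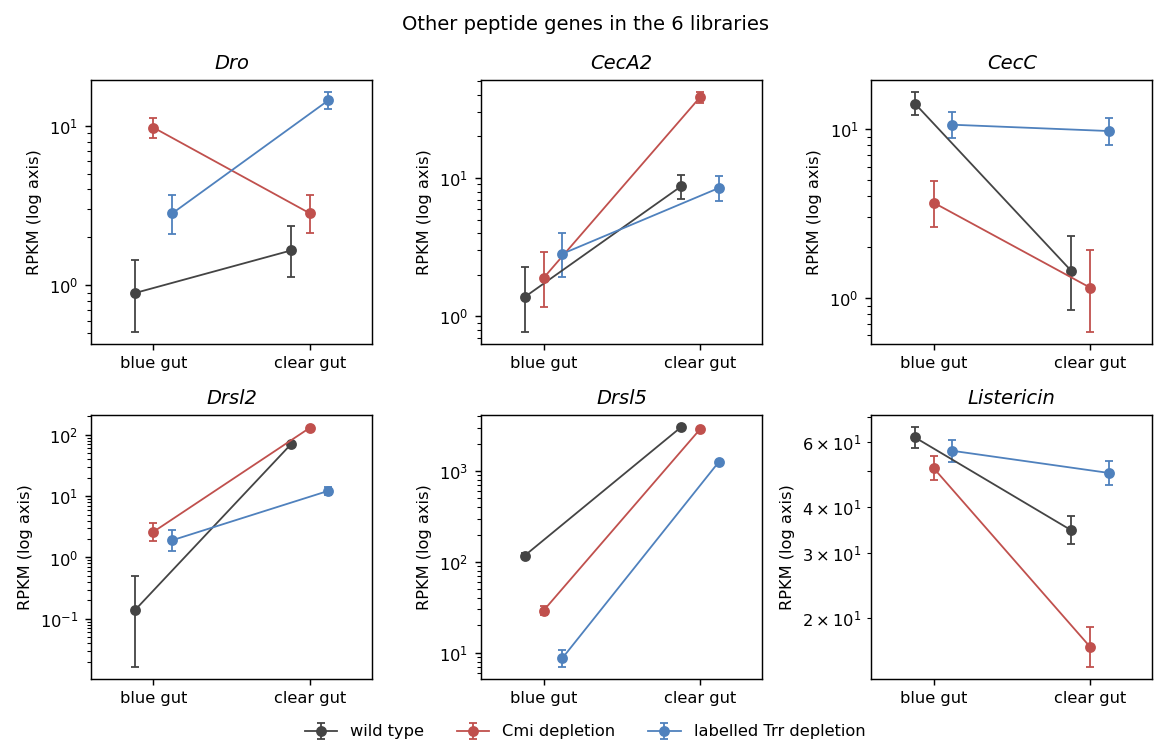
RPKM of 6 other peptide genes (log axis, scaled per panel) at blue gut and clear gut in wild type (grey), Cmi depletion (red) and the Trr-labelled libraries (blue), with exact 95% counting intervals and 1 library per point. Drsl5 goes from at most 118 RPKM at blue gut to at least 1251 at clear gut, and the red and blue lines of Dro cross.

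The Toll pathway runs from recognition proteins and serine proteases over the ligand Spätzle to the receptor Toll, the adaptor Myd88, the kinase Pelle and the inhibitor Cactus. Of 21 listed genes limma called 8 higher and 2 lower at clear gut, where 24.2% and 11.1% of all genes were called, with a median log2 change of 0.44, beside 0.15 for all genes. Higher were the proteases modSP (1.41) and spirit (1.80), the recognition gene GNBP1 (0.44), and the intracellular genes Myd88 (0.87), pll (0.71), Pli (1.81), Traf6 (0.54) and cact (0.93). Lower were SPE (-1.28), the protease that cleaves Spätzle, and nec (-0.74), a serpin that restrains the pathway. The inhibitor cact went from 33.4, 44.5 and 44.7 to 74.9, 86.4 and 73.9 RPKM, and SPE from 9.80, 8.01 and 13.1 to 3.27, 2.63 and 5.11 RPKM. With median-ratio scaling 5 were called higher and 3 lower, and pll, Traf6 and GNBP1 were no longer among them.

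None of the 21 was called in either depletion, with 4 under Cmi depletion and 3 in the Trr-labelled libraries at an unadjusted p below 0.05, where 6.81% and 6.88% of all genes were. The largest differences under Cmi depletion were those of spirit (-1.08), psh (-0.93) and PGRP-SA (-0.90). In the Trr-labelled libraries they were PGRP-SA (-0.77), spirit (-0.59) and SPE (0.45). Between the depletions they were SPE (0.70), psh (0.62) and Dif (-0.57). There 0 were called and 1 had an unadjusted p below 0.05, as did 4.29% of all genes. PGRP-SA, a recognition protein for Gram-positive bacteria, measured 39.0 and 19.6 RPKM in wild type, 15.4 and 13.3 under Cmi depletion, and 18.9 and 13.1 in the Trr-labelled libraries.

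The Imd pathway runs from the receptor PGRP-LC over the adaptor Imd and the kinase Tak1 to Relish, and is held back by the amidases PGRP-LB, PGRP-SC1b and PGRP-SC2 and by pirk. Of 24 listed genes limma called 8 higher and 3 lower at clear gut (median 0.32), against the same shares of all genes. Higher were PGRP-LC (0.83), imd (1.03), akirin (0.78), casp (0.71), bon (0.91) and the ubiquitin-conjugating genes eff (0.65), ben (0.73) and Uev1A (0.47). The 3 lower genes were the amidases PGRP-SC1b (-3.63), PGRP-SC2 (-2.49) and PGRP-LB (-1.91). PGRP-LB went from 9.93, 20.7 and 11.9 RPKM at blue gut to 3.53, 2.19 and 2.98 at clear gut. With median-ratio scaling the 3 amidases were again called lower, but only imd and akirin higher.

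In the depletions limma called 0 of the 24. At an unadjusted p below 0.05 were 1 under Cmi depletion (6.81% of all genes) and 2 in the Trr-labelled libraries (6.88%). The largest differences under Cmi depletion were those of PGRP-SC1b (1.27), dnr1 (0.52) and PGRP-LC (0.37), and in the Trr-labelled libraries PGRP-SC2 (0.62), PGRP-LF (0.45) and Iap2 (0.41). Between the depletions they were PGRP-SC1b (-0.96), PGRP-SC2 (0.96) and PGRP-LC (-0.43). There 0 were called and 1 had an unadjusted p below 0.05, as did 4.29% of all genes. PGRP-SC1b measured 46.6 and 2.22 RPKM in wild type, 173 and 4.11 under Cmi depletion, and 28.7 and 6.87 in the Trr-labelled libraries. Rel, the gene of Relish, measured 26.9 and 43.4, 38.7 and 37.7, and 34.5 and 44.0 RPKM, and pirk 34.2 and 46.1, 73.6 and 29.6, and 48.5 and 31.3 RPKM. Under Cmi depletion at blue gut pirk, PGRP-SC1b and PGRP-LB (20.7 against 9.93 RPKM) lay above wild type, as did Dpt. PGRP-SC2 (195 against 210) lay below it. Dpt was highest in the clear gut Trr-labelled library. There PGRP-SC1b and PGRP-SC2 (66.2 against 36.6) lay above wild type, and pirk and PGRP-LB (2.98 against 3.53) below it. The part of the Imd pathway in the levels of Dpt was not tested.

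Of 17 other regulators tested, limma called 13 higher and 1 lower at clear gut (median 0.57), where 24.2% and 11.1% of all genes were. With median-ratio scaling br was the only one called higher and cad the only one lower. The GATA factor gene srp, which fat body and blood cells use, was among the higher genes (0.80), as were the JAK-STAT genes dome (0.56), hop (0.69), Stat92E (0.58) and Socs36E (0.78) and the JNK pathway genes hep (0.60), kay (0.57), Jra (0.53) and puc (0.67). Also higher were br (1.94), vri (0.78), Mad (0.56) and nub (0.54). The gut regulator cad fell (-0.63). The median log2 change of all genes at clear gut was 0.15 as deposited and -0.05 with median-ratio scaling. Under Cmi depletion, in the Trr-labelled libraries and between the depletions, 6.81%, 6.88% and 4.29% of all genes had an unadjusted p below 0.05. Of the regulators 0 had, and limma called 0 in any of these comparisons. The largest differences were those of Socs36E (0.51), hop (0.43) and puc (0.40) under Cmi depletion, of EcR (0.39), cad (0.37) and hop (0.25) in the Trr-labelled libraries, and of EcR (0.73), kay (-0.40) and Socs36E (-0.35) between the depletions.

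The tissues that can make these peptides had other levels at the 2 stages. The 10 fat body markers summed to 55864, 47290 and 49476 RPKM at blue gut, then 29229, 36139 and 36583 at clear gut in wild type, Cmi depletion and the Trr-labelled libraries, and none was at 0. Their members went both ways at clear gut, with Lsp1alpha (log2 -5.03), Lsp1beta (-5.03), Lsp1gamma (-3.96) and Lsp2 (-0.74) called lower and Fbp1 (1.09) and Ilp6 (1.14) called higher by limma. The 19 midgut markers summed to between 27014 and 33809 RPKM at blue gut and between 3244 and 4189 at clear gut. The 8 markers of trachea and epidermis summed to 194 to 197 RPKM at blue gut and 232 to 346 at clear gut. The 15 blood cell markers summed to 1048, 640 and 553 RPKM at blue gut, then 470.5, 219 and 258 at clear gut. Limma called 10 of them lower and 2 higher (lz and proPO59) at clear gut, where 11.1% and 24.2% of all genes were. At blue gut proPO45 measured 281, 103 and 53.0 RPKM and proPO-A1 181, 64.4 and 33.5, a large part of the genotype difference in the sum. Muscle markers summed to 2494, 2692 and 2117 RPKM at blue gut and to 514, 184 and 834 at clear gut. At clear gut the Trr-labelled library had the highest sum for muscle, fat body and midgut, as for DptB and AttC. The midgut sums there were 3413, 3244 and 4189 RPKM. Wild type had the highest clear gut sum for the other lists. Salivary gland markers summed to 23438, 6241 and 9999 RPKM at blue gut and to 18141, 3174 and 15793 at clear gut. The part of these tissues in the stage changes and genotype differences above was not tested.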

How the data were processed

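RNA from 6 pools of whole larvae was selected with oligo dT and sequenced on an Illumina HiSeq instrument, and reads were aligned with SOAPaligner/SOAP2, per the labels' protocols. The submitters' processing notes also name Bowtie and the build dm6. For the counting tool and the annotation, nothing is given in the sources used here. The authors deposited RPKM values, with a gene length in bases, and a dash was read as 0. Whole reads were recovered from the deposited RPKM as the depth at which values fall on whole reads. At that depth 84.8% to 85.7% of values lay within 0.1 of a whole read and at least 99.99% within 0.1 of a whole read or a whole read plus 0.5. Reads were rounded to the nearest whole number for the exact (Clopper-Pearson) intervals of ratios.

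Values of log2(RPKM + 1) were tested with limma 3.58.1 (statmod 1.5.0, R 4.3.3), a scale that understates changes of low genes, with genotype and stage as additive terms over all 6 libraries. The fit left 2 residual degrees of freedom. Its code was also run on simulated data. These held no stage effect, and a genotype's effect was the same at both stages, so nothing is read from that run. The 11467 genes averaging 1 RPKM or more were tested, two-sided, at an adjusted p of 0.05 (Benjamini-Hochberg). With no replicates, the residual measures how far a genotype's effect differs between stages, not the spread between pools. Alternatives were a pseudocount of 0.1, no filter, median-ratio scaling, quantile normalization and leaving out libraries. Named genes are the members, the called genes of fixed lists or, where none was called, the 3 largest differences, and the 2 closest profiles per member. Rel, pirk and Listericin were added after their values were seen. Members and lists were chosen with earlier results of these data known. Sequences were not used here.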

Additional observations from a re-analysis of the deposited data

Results flagged for a closer look

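Members were listed where the same contrast went in opposite directions in 2 groups, each past 1.5-fold with both counting intervals clear of 1. With 1 library per group none of these differences was tested. The difference between the 2 log2 ratios is given for each, always the latter minus the former. For the Trr-labelled libraries against Cmi depletion, clear gut against blue gut, it was 3.38 for Dpt, 4.02 for DptB, 5.45 for AttC and 2.80 for AttD. For clear gut against blue gut, Cmi depletion and then the Trr-labelled libraries, it was 3.39 for Dpt, 4.02 for DptB and 5.45 for AttC, which restates the same 4 libraries. For wild type and then the Trr-labelled libraries it was 2.82 for DptB and 2.77 for AttC. No member was listed for either depletion against wild type.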

How the results depend on the processing

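No paired analysis was possible because each group holds 1 library and the labels give no replicate numbers. At clear gut against blue gut limma called 2 members (Mtk and Drs) as deposited, with the pseudocount of 0.1, with no filter and with quantile normalization, and 1 (Mtk) with median-ratio scaling. Leaving out 1 library gave 0 to 4 members and 0 to 3610 of all genes, with 0 of both without either wild-type library, and 4 members (with AttD and DptB lower) without either Trr-labelled library. Without both of the latter, chosen after seeing the data, it called 4 members and 2615 genes; a genotype left with 1 library adds nothing to the stage estimate, so these are 1 estimate. All genes called split as 2777 higher and 1275 lower as deposited, 1334 and 1456 with median-ratio scaling, and 2117 and 1414 with quantile normalization.

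For Cmi depletion 12 genes were called, 7 with quantile normalization and 0 to 328 leaving out 1 library, with 328 without the Cmi depletion blue gut library and 0 without either wild-type library. For the Trr-labelled libraries 6 were called, and 0 to 106 leaving out 1 library, and between the depletions 0, and 0 to 337. Of the members, Drs was called between the depletions (log2 2.52) without the Cmi depletion clear gut library. That drops the stage at which Drs was nearly level and leaves Cmi depletion 1 library, so nothing is read from it. Leaving out 1 library also gave a call of AttA for Cmi depletion. That call supports nothing because AttA passed the filter through the depletion libraries.

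Directions that turned were all of values limma did not call. With median-ratio scaling Mtk between the depletions was -0.05 and AttB at clear gut -0.02. With quantile normalization Mtk between the depletions was -0.03 and Def in the Trr-labelled libraries -0.08. Without both Trr-labelled libraries Dpt at clear gut was -0.34 and AttB -0.26. Leaving out 1 library, log2 values ranged as follows. Under Cmi depletion Mtk ranged from -0.15 to 0.52, Drs from -1.78 to 0.45, DptB from -0.12 to 2.40 and AttC from -0.92 to 2.42. In the Trr-labelled libraries Mtk ranged from -0.05 to 0.42, Drs from -0.10 to 1.59, AttD from -0.59 to 1.83 and Def from -0.18 to 0.46. Between the depletions Mtk ranged from -0.33 to 0.34, Dpt from -1.40 to 1.24, AttD from -1.50 to 0.92, DptB from -0.78 to 2.41 and AttC from -0.73 to 2.67. At clear gut against blue gut AttC ranged from -1.90 to 0.35, Dpt from -0.34 to 1.33 and AttB from -0.26 to 0.37. A genotype left with 1 library was assumed to vary like the others. The cause was not tested. Of 81 ratios between 2 libraries, 3 turned or reached 1 with median-ratio scaling, and none moved by more than 1.28 times. With that scaling 20 of them lay outside their own counting interval, which does not cover the choice of scaling. Opposite directions at the 2 stages were seen in 4 cases (Trr-labelled against Cmi depletion) as deposited and 5 with median-ratio scaling, AttD against wild type being the other. Depth limits Def and AttA, with few reads in wild type.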
